A study of Homo sapiens with 3 samples.

Results

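ABC transporters are membrane proteins that use ATP to move drugs, bile salts, lipids and peptides across membranes, and their human genes fall into subfamilies A to G. Members were the protein-coding genes whose symbol is ABC, a letter from A to G and a number, and a member was given every peak whose centre lay in its gene span in RefSeq GRCh38.p14. By this rule 45 of the 20037 coding genes on chromosomes 1 to 22, X and Y were members, and they held 29 of the 21031 peaks of the list. The symbols leave out CFTR, TAP1 and TAP2, which belong to subfamilies B and C under other names.

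The peaks come from eCLIP, in which a protein is crosslinked to RNA by UV light, precipitated and sequenced with the RNA fragments it holds. LS174T cells, a human line from a colon adenocarcinoma, were used, and all 3 libraries came from cultures transfected for 24 h with HA-tagged mouse Pxr, the pregnane X receptor. UV light of 254 nm was given at 400 mJ/cm2. The labels name antibodies to PXR, to the HA tag and control IgG, and do not state which was used for which library. The labels name 1 input library and 2 replicates of the immunoprecipitate, and 1 peak list of the immunoprecipitate was analysed here. No library is labelled as untransfected, so all 3 share an added receptor of another species. Values below therefore carry counting intervals in place of replicate errors, and no test between groups could be made.

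PXR is a nuclear receptor that binds drugs and bile acids and raises transcription of genes for their metabolism and export, in gut and liver above all. ABCB1, ABCC2, ABCC3 and ABCG2 are export pumps commonly studied as its target genes. In an RNA crosslinking experiment a peak marks RNA fragments and says nothing of the receptor on DNA. Each peak has the authors' fold, the ratio of the reads at its summit to a local background, and a −log10 q. In all 29 peaks of ABC genes the recovered background was a whole number of reads per 10 kb, within 0.05. Whether reads of the input library entered this background was not tested. Folds and peaks are therefore read here as local pile-ups of reads, and not as enrichment over input. The reads under each summit were worked back from that fold and the peak's −log10 p, and their intervals are exact Poisson intervals at 95% that cover counting error only, because PCR copies are not independent molecules. Of markers chosen to check the cell type, all 10 goblet and colon epithelial genes had a peak, and none of 5 hepatocyte, 3 kidney tubule, 3 macrophage and 3 adipocyte genes had one.

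A peak lay in 17 of the 45 ABC genes (37.8%, Wilson interval 25.1 to 52.4%). Over all coding genes the share was 41.6%, within that interval. They included ABCA2, ABCA3, ABCA5, ABCA7 and ABCA12, ABCB8, ABCB9 and ABCB10, ABCC3, ABCC5, ABCC10 and ABCC11, ABCD3 and ABCD4, and ABCF2 and ABCF3. In subfamily A, 5 of 12 genes held peaks (41.7%, with a Wilson interval of 19.3 to 68.0%), in subfamily B 3 of 9 (33.3%, 12.1 to 64.6%) and in subfamily C 4 of 11 (36.4%, 15.2 to 64.6%). Subfamily D, mostly peroxisomal fatty acid importers, had one in 3 of 4 (75%, 30.1 to 95.4%), and subfamily F in 2 of 3 (66.7%, 20.8 to 93.9%). None of the 5 genes of subfamily G had a peak (0%, up to 43.4%), and neither did ABCE1, the only gene of subfamily E. The intervals of all 7 subfamilies overlapped, and each held the share of all coding genes.

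**Figure D1:**
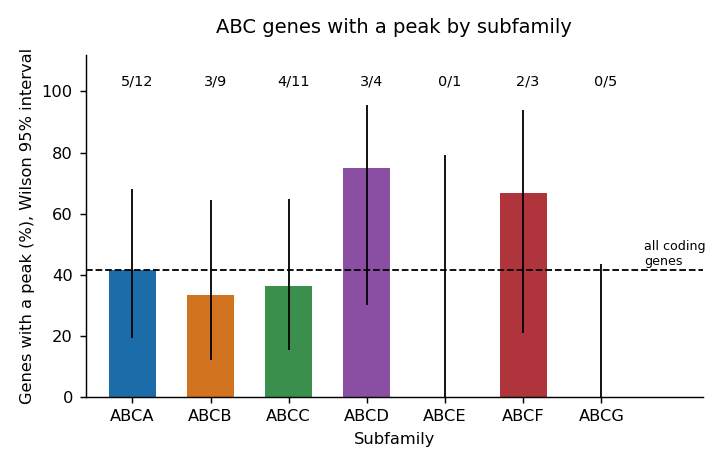
Share of the genes of each ABC subfamily (x axis) that held a peak centre, in percent (y axis). Bars are the shares, black lines their 95% Wilson intervals, counts above the bars are genes with a peak over all genes, and the dashed line is the 41.6% of all coding genes, which every interval includes.

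Of the 4 drug efflux genes, ABCC3 held 5 peaks, and ABCB1, ABCC2 and ABCG2 held none. The share with a peak was 25% (Wilson interval 4.56 to 69.9%), against 41.6% of all coding genes, which that interval holds. ABCC3 codes for MRP3, which exports bile salts and glucuronides across the basolateral membrane, and ABCC3 held more peaks than any other ABC gene. It lies on chromosome 17 from 50634881 to 50692253, and all 5 peaks were on the plus strand. At its low-coordinate end a peak at 50635529 to 50635745 had 21 summit reads (Poisson interval 13.0 to 32.1) at a fold of 3.72. A pair only 49 bases apart lay deep inside the gene, at 50675657 to 50675859 with 31 reads (21.1 to 44.0) at a fold of 4.43, and at 50675909 to 50676109 with 27 reads (17.8 to 39.3) at a fold of 3.89. The remaining peaks, at 50687600 to 50687799 and at 50691167 to 50691402, had 21 reads at a fold of 5.73 and 10 reads (4.80 to 18.4) at a fold of 4.04. The 5 summits lay between 10 and 31 reads and were spread over 55.9 kb of the gene. The intervals of the shallowest and the deepest did not overlap, while those of the other peaks overlapped each other. Among the 8329 coding genes with a peak, ABCC3 had more peaks than 89.1% of them, and a deeper summit than 67.4%. No other gene of the table overlapped its peaks.

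The other drug efflux genes lay between peaks of their neighbours. ABCB1, for P-glycoprotein, spans 210 kb of chromosome 7 and its nearest peak was 163 kb away, in SLC25A40, with 9 reads. ABCC2, for the canalicular pump MRP2, had its nearest peak 23.5 kb away in DNMBP, on the minus strand, with 16 reads. ABCG2, for the breast cancer resistance protein, had its nearest peak 82 kb away in PKD2, with 12 reads. A gene without a peak may be silent in these cells or too shallow to be called, and no expression values were used here, so a missing peak says nothing firm about binding.

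Of the 6 other multidrug resistance proteins, ABCC5, ABCC10 and ABCC11 had a peak, and ABCC1, ABCC4 and ABCC12 had none. That is 50% (Wilson interval 18.8 to 81.2%), against 41.6% of all coding genes. ABCC5, which exports cyclic nucleotides and nucleotide analogues, held 3 peaks on its own strand. Their summits had 13 reads at a fold of 6.93, 9 reads at 4.81 and 14 reads at 3.46, the first of them 721 bases from the downstream end of the gene. ABCC10, for MRP7, held 1 broad peak of 498 bases with 18 reads (10.7 to 28.4) and a fold of 4.15, on chromosome 6 from 43432375 to 43432872. The only peak in ABCC11, a gene known for its part in earwax type, lay on chromosome 16 from 48244356 to 48244754 with 27 reads (17.8 to 39.3) at a fold of 14. It was on the strand opposite to ABCC11 and on that of LONP2, a peroxisomal protease gene whose span covers the same position. It was the only peak on the opposite strand among the 22 in members with a stated strand.

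The lysosomal and peroxisomal members held peaks in 5 genes out of 6 (83.3%, with a Wilson interval of 43.6 to 97.0%, against 41.6% of all coding genes), and ABCD2 had none. ABCA2, a lipid transporter of late endosomes and lysosomes, held 3 peaks and the deepest summit of all ABC genes. That summit, on chromosome 9 from 137020674 to 137020947, had 54 reads (40.6 to 70.5) at a fold of 4.52. The others had 41 reads at a fold of 2.98, from 137016256 to 137016460, and 34 reads at a fold of 4.81, from 137007256 to 137007923, where the peak was 668 bases wide and centred 355 bases from the downstream end. The 10 kb around these summits held 559, 654 and 314 reads, so the low folds stood over a well covered gene. ABCD4, which takes part in the release of cobalamin from lysosomes, had 18 reads (10.7 to 28.4) and a fold of 6.01, on chromosome 14 from 74286153 to 74286424. ABCD3, for the peroxisomal membrane protein PMP70, had 12 reads (6.2 to 21.0) at a fold of 5.91. ABCB9, a lysosomal peptide transporter, had the shallowest deepest summit of all, with 6 reads (2.20 to 13.1) at a fold of 5.30.

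Of the 4 mitochondrial members ABCB8 and ABCB10 had peaks, and ABCB6 was among those with none. ABCB8, a transporter of the inner membrane, held 2 peaks on chromosome 7, with 33 reads (22.7 to 46.3) at a fold of 6.18 from 151045354 to 151045653, and 31 reads at a fold of 4.31 from 151033686 to 151033894. ABCB10, which has a part in haem synthesis, had 12 reads at a fold of 5.91. The nearest peak to ABCB6 lay only 280 bases from its span and on the plus strand, in ZFAND2B, whereas ABCB6 is on the minus strand.

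Among sterol and phospholipid transporters, 3 of 10 held peaks (30%, with a Wilson interval of 10.8 to 60.3%). That interval holds the 41.6% of all coding genes. ABCA3, which loads surfactant lipid in lung cells, held the peak with the highest fold of any member, 19.1, with 43 reads (31.1 to 57.9) on chromosome 16 from 2332428 to 2332660. Of the 65 reads in the 10 kb around it, 43 lay under this summit, where the pseudogene RPS16P7 overlaps ABCA3. RPS16P7 is a copy of a ribosomal protein gene, so which of the copies the reads came from is uncertain. A further ABCA3 peak held 8 reads at a fold of 6.72. ABCA7, a phospholipid transporter, had a peak on chromosome 19, from 1047278 to 1047533, with 23 reads (14.6 to 34.5) and a fold of 4.21. ABCA12, which loads lipid in keratinocytes, held 2 peaks of 7 and 6 reads. No peak lay in the cholesterol exporters ABCA1 and ABCG1, the gut and liver sterol pumps ABCG5 and ABCG8, the bile phospholipid transporter ABCB4, the retinal ABCA4 and ABCG4, nor in the bile salt export pump ABCB11.

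ABCE1 and subfamily F have ATP-binding domains but no membrane span, and act with ribosomes. On chromosome 7, from 151213588 to 151214028, ABCF2 held 1 peak with 21 reads (13.0 to 32.1) and a fold of 5.70, shared with the read-through gene ABCF2-H2BK1. ABCF3 held 1 peak with 17 reads (9.90 to 27.2) at a fold of 5.73, centred 259 bases from its downstream end. ABCE1, which splits ribosomes after termination, had none. Of 14 genes of translation termination, recycling and initiation listed beside it, 13 had a peak (92.9%, Wilson interval 68.5 to 98.7%, against 41.6% of all coding genes). The list is broader than the step of ABCE1, since EIF2S1, EIF2S2 and EIF2S3 code for subunits of an initiation factor. Deepest of the 14 listed genes were EIF2S3 with 91 reads, EIF1 with 86 and GSPT1 with 53. The pseudogene ABCE1P1 held 1 peak, with 7 reads and a fold of 6.25. Reads of ABCE1 and of such a copy may not be separable by alignment.

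Of the 5 genes of the ABCA cluster on chromosome 17, ABCA5 held 1 peak, with 10 reads and a fold of 5.56, and ABCA6, ABCA8, ABCA9 and ABCA10 had none. The share with a peak was 20% (Wilson interval 3.62 to 62.4%), against 41.6% of all coding genes. The sulfonylurea receptors ABCC8 and ABCC9 had none, and neither had ABCA13, ABCB5 and ABCC6, which were in no function group. Outside the rule, CFTR, a chloride channel of the colon epithelium in subfamily C, held 4 peaks of up to 16 reads, and TAP1 and TAP2 held none. Of 19 ABC pseudogenes, ABCE1P1 and ABCA15P had a peak.

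**Figure D2:**
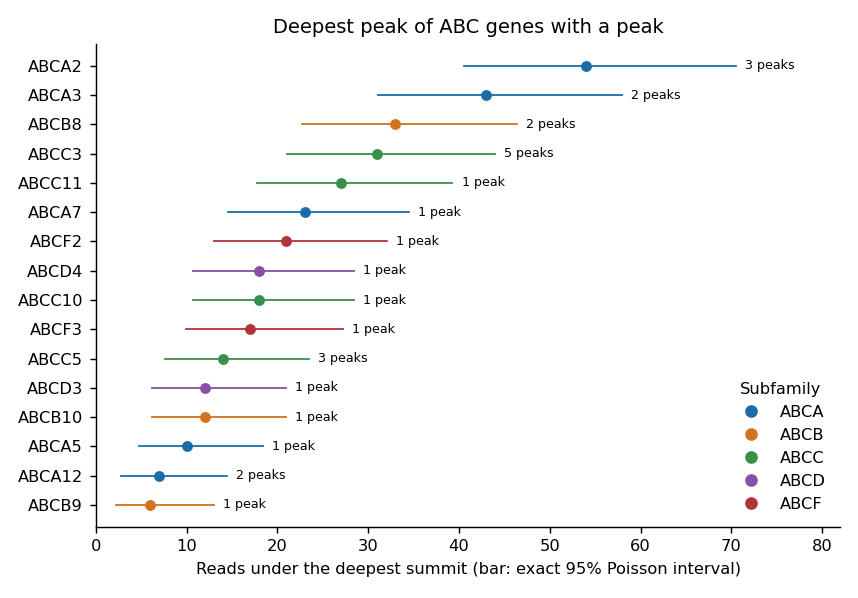
Reads under the deepest summit (x axis) of 16 ABC genes with a peak (y axis), coloured by subfamily. Points are recovered reads, bars are exact 95% Poisson intervals and labels give the number of peaks. ABCA2 is deepest with 54 reads and ABCB9 shallowest with 6, and neighbouring genes have overlapping intervals.

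Peaks in ABC genes were narrower and had a lower −log10 q, by their medians, than those of coding genes as a whole, while the interval of their median depth held the coding-gene median. Their median summit had 18 reads (order-statistic interval 12 to 27) against 22 (21 to 22) in all 19269 coding-gene peaks, and the deepest, in ABCA2, ranked 1107 among 8329 genes. Their median fold was 5.30 (4.31 to 5.88) against 5.93 (5.88 to 5.96), and 27 of the 29 had a fold under 7, the exceptions being those in ABCA3 and ABCC11 that overlap another gene. The median −log10 q was 6.42 (4.85 to 8.70) against 9.18 (9.07 to 9.32). The median width was 212 bases (201 to 258) against 268 (266 to 270), and 10 of the 29 were at or within 2 bases of the narrowest width in the list, 200 bases (34.5%, Wilson interval 19.9 to 52.7%), against 17.5% of coding-gene peaks. If 200 bases is the length of an extended read, such a peak is about as wide as 1 read. Where its reads start was not tested. Counting peaks that reach the list's median −log10 q of 9.16 left 4 of 45 ABC genes (8.89%, Wilson interval 3.51 to 20.7%), against 25.9% of coding genes. These were ABCA2, ABCA3, ABCB8 and ABCC11, and no drug efflux gene was among them. Their highest −log10 q was 16.4 in ABCA2, 45.5 in ABCA3, 14.4 in ABCB8 and 25.8 in ABCC11. ABCA3 and ABCC11 reached the level only with the peaks that overlap another gene, in ABCC11 on the opposite strand. The further ABCA3 peak had a −log10 q of 6.55. The other genes with deep summits reached 8.70 in ABCF2, 8.15 in ABCD4, 6.31 in ABCA7 and 4.85 in ABCC10. The ABCC3 summit at 50675657 to 50675859 missed that level narrowly, with a −log10 q of 9.14.

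Long members had few peaks. ABC genes had a median length of 82.7 kb, against 24.1 kb over all coding genes. Of the ABC genes under 20 kb, 5 of 7 held peaks (71.4%, with a Wilson interval of 35.9 to 91.8%), against 32.6% of coding genes of that length. From 20 to 50 kb the share was 4 of 8 against 47.3%, and from 50 to 100 kb it was 6 of 15 (40.0%, 19.8 to 64.3%) against 50.1%. Over 100 kb it was 2 of 15 (13.3%, 3.74 to 37.9%) against 50.3% of coding genes, with ABCD3 and ABCA12 the ones with a peak. Members with a peak had a median length of 42.1 kb and those without one 97.2 kb, whereas over all coding genes those with a peak were the longer, at 33.3 kb against 18.4 kb. Per Mb of gene span the members held 6.96 peaks and coding genes 14.9. Expression, which sets how much RNA a gene can give, was not tested.

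**Figure D3:**
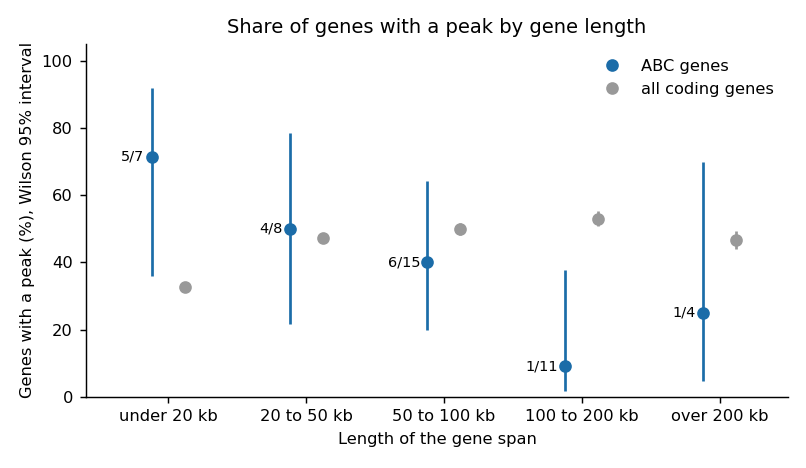
Share of genes with a peak (y axis, percent) by length of the gene span (x axis) for ABC genes in blue and all coding genes in grey. Points are shares, lines 95% Wilson intervals, and the counts are ABC genes with a peak over all ABC genes of that length. The ABC share is above that of coding genes under 20 kb and below it over 50 kb. The coding share lies outside the ABC interval only under 20 kb and from 100 to 200 kb.

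The strand of the gene was stated for 35 members, and 14 of these had a peak on their own strand (40.0%, Wilson interval 25.6 to 56.4%), against 41.5% of coding genes with a stated strand. Of the 22 peaks in such members, 21 were on the strand of the gene (95.5%, 78.2 to 99.2%), as were 94.3% of peaks in coding genes. ABCC3 was among the 10 members without a stated strand. Along the gene, 4 of the 21 peaks on the gene's own strand lay in the first 10% of its length (19.0%, Wilson interval 7.67 to 40.0%) and 4 in the last 10%, against 28.0% and 24.9% in coding genes. The first 1 kb held 3 of them (14.3%, Wilson interval 4.98 to 34.6%) and the last 1 kb another 3. In coding genes these shares were 25.8% and 15.9%, both within that interval. The other 15 lay over 1 kb from either end of the gene span.

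**Figure D4:**
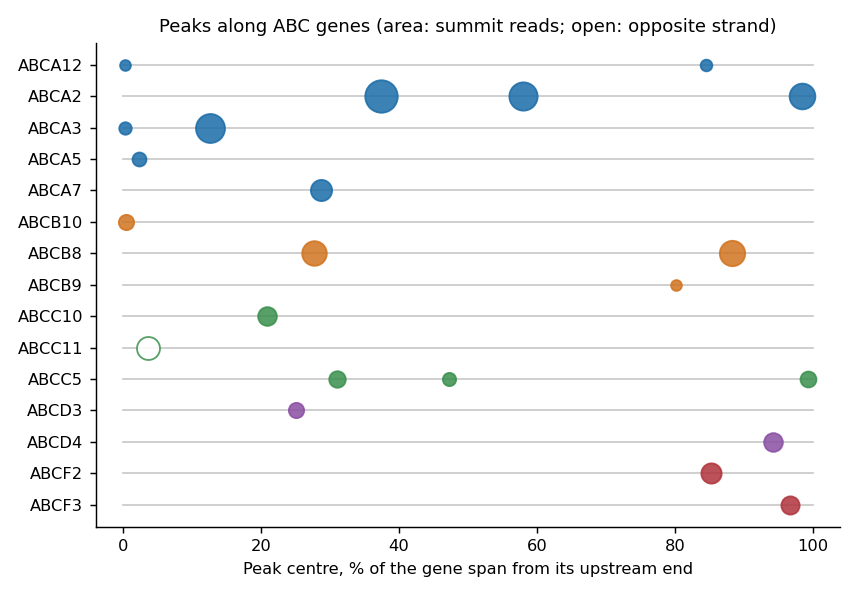
Position of each peak centre along its gene, in percent of the gene span from the upstream end (x axis), for the 15 ABC genes with a peak and a stated strand (y axis). The area of a circle follows the summit reads, filled circles are peaks on the strand of the gene, and the open circle is the ABCC11 peak on the opposite strand.

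In ABCA3, ABCA12, ABCB10 and ABCD3 a peak began just downstream of an annotated transcription start, so the letters at these starts are shown. They are from RefSeq (GRCh38.p14), on the strand of the gene, with the 30 bases before the start in lower case and the first 30 transcribed bases in capitals. The peak began 72 bases after the start in ABCA3, 86 in ABCB10, 169 in ABCD3 and 280 in ABCA12. The ABCD3 start is not the outermost one, since the centre of this peak lay 33.5 kb from the upstream end of the gene span.
ABCA3, chr16:2340699-2340758, minus strand: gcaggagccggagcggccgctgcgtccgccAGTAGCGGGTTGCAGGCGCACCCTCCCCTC
ABCB10, chr1:229558678-229558737, minus strand: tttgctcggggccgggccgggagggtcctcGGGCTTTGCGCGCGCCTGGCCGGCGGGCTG
ABCD3, chr1:94418359-94418418, plus strand: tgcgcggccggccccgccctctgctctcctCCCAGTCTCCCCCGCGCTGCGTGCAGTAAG
ABCA12, chr2:215138597-215138656, minus strand: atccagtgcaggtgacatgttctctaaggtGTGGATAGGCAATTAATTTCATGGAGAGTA
These peaks had 8 reads in ABCA3, 12 each in ABCB10 and ABCD3, and 6 in ABCA12. Of the 60 bases printed, G and C made up 76.7% in ABCA3, 80% in ABCB10 and 75% in ABCD3, and 41.7% in ABCA12.

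The 28 members without a peak lay in stretches of the genome, from 1 peak centre to the next, that differed widely in length. The median stretch was 0.691 Mb for these members and 0.394 Mb for the 11453 coding genes without a peak and with a peak on either side. Stretches of over 1 Mb held 7 of the 28 members (25%), against 25.8% of those coding genes. A stretch holds its gene whole, and members without a peak had a median length of 97.2 kb, against 18.4 kb for coding genes without one. Members that share a stretch were each counted, such as ABCA6, ABCA8, ABCA9 and ABCA10. ABCF1, a translation regulator of subfamily F, lay in a stretch of 3.68 Mb on chromosome 6, from 29943037 to 33621568, that held 146 coding genes whole. No other of the 4446 stretches that hold a coding gene held as many, and the next held 65. It spans the major histocompatibility complex and also held TAP1, TAP2, TAPBP, HLA-B and HLA-C. The list had 12 peaks, of up to 26 reads, on 5 alternate contigs of chromosome 6. Genes of these contigs were not used here, and whether RNA of ABCF1 was aligned to them was not tested. ABCC1, for the drug pump MRP1, and ABCC6 shared a stretch of 3.06 Mb on chromosome 16 that held 24 coding genes, themselves included. On an alternate contig of that chromosome lay 1 peak of 11 reads. ABCA1 lay in a stretch of 2.04 Mb with 12 coding genes, ABCE1 in one of 1.67 Mb with 7, and ABCC4 in one of 1.08 Mb with 5. Each of these counts includes the member itself. ABCB1 and ABCB4, which are neighbours, shared a stretch of 0.691 Mb that held 5 coding genes, themselves included.

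**Figure D5:**
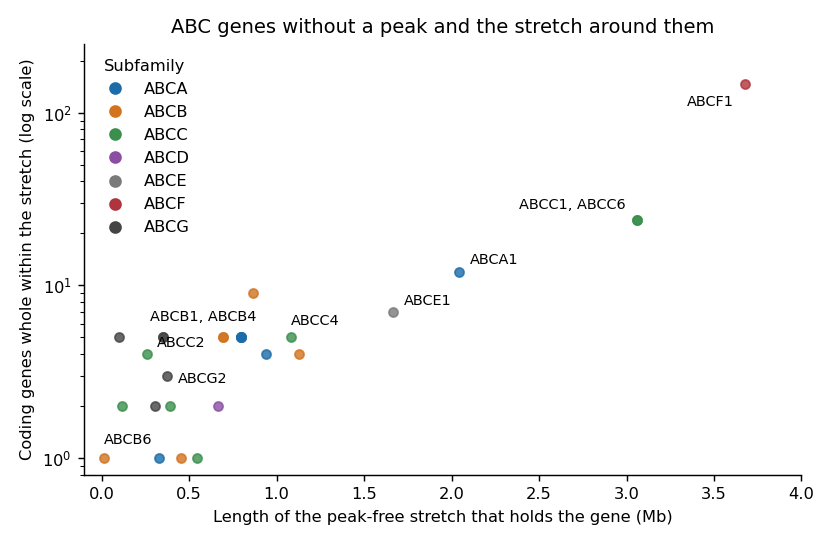
Length of the stretch without a peak centre (x axis, Mb) and number of coding genes whole within it (y axis, log scale) for each of the 28 ABC genes without a peak, coloured by subfamily. ABCF1 stands apart with 146 coding genes in 3.68 Mb, followed by ABCC1 and ABCC6 with 24 in 3.06 Mb.

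Genes that work beside the ABC transporters had peaks in varying shares, to be read against the 41.6% of all coding genes. That share lay within the intervals of the SLC carriers, the peroxisome biogenesis genes and the peptide loading genes listed here, and below those of the cholesterol and the iron-sulfur and haem lists. Of 20 drug and bile acid carriers of the SLC families, 6 held peaks (30%, with a Wilson interval of 14.5 to 51.9%). SLCO1B3, an uptake carrier for bile acids and drugs, held 10 peaks and reached 197 reads at a fold of 10.8, well over any ABC gene, followed by SLCO4A1 with 79 reads and the lactate carrier SLC16A1 with 28. The SLCO1B3 summit is shared with the read-through gene SLCO1B3-SLCO1B7. Cholesterol and phospholipid handling genes had a peak in 11 of 15 (73.3%, 48.0 to 89.1%), among them OSBP with 67 reads and TMEM30A with 58. Peroxisome biogenesis genes had one in 8 of 16 (50%, 28.0 to 72.0%), with PEX6 at 30 reads, PEX26 at 19 and PEX5 at 18. Partners of the mitochondrial members in iron-sulfur and haem synthesis had one in 11 of 14 (78.6%, 52.4 to 92.4%), with HSPA9 at 109 reads, GLRX5 at 54 and ISCU at 35. Genes of MHC class I peptide loading had one in 7 of 11 (63.6%, 35.4 to 84.8%), with CALR at 246 reads, CANX at 120 and PDIA3 at 52. The difference of these lists from the ABC genes was not tested, and their genes differ in length and probably in expression.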

How the data were processed

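One peak list of the PXR immunoprecipitate in LS174T cells was used. Per the submitters' processing notes, cutadapt, BWA, MACS2 and hg38 were used; versions and settings are not given in the sources used here, nor is whether replicates were pooled. The deposited columns are a score (the integer part of 10 times the −log10 q in all 21031 peaks), the authors' fold (a ratio of summit to background, each with 1 added), −log10 p and −log10 q, and the summit's distance from the peak start. Peak names show that strands were called apart. Depth of single libraries was not analysed here.

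Summit reads were the whole number that, with a background, matched the deposited fold and Poisson −log10 p (tolerance 0.0001, plus 0.00001 of the value), which held in 21028 peaks and in all 29 of ABC genes. The recovered background, in reads per 10 kb, was whole within 0.05 in all 29. This step was tested on simulated data. Peak centres were given to genes of the RefSeq table, whose build, GRCh38.p14, has the same chromosome coordinates as hg38. Gene strand came from the RefSeq promoter table, which held 35 of 45 members; exons were not used. Shares have Wilson intervals and medians order-statistic intervals at 95%. Python 3.11.15, scipy 1.17.1 and pandas 2.3.3 were used. Full values are given for the 8 members with the deepest summits (9 with a tie), for the deepest of each subfamily and for the drug efflux genes; members and lists were chosen with earlier results of these data known. Some genes are counted but not reported here. Of 21 listed SLC carriers, 20 were found. Peaks and genes are not replicates, so no test was run.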

Additional observations from a re-analysis of the deposited data

Results flagged for a closer look

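Peaks on alternate contigs of chromosome 6 lie outside the chromosomes on which genes were counted, and 12 of them were in the list. Their summits had 6 to 26 reads and folds of 5.44 to 16.5. They are a signal in data that none of the comparisons used, on contigs whose chromosome holds ABCF1, TAP1 and TAP2 without a peak. In all, 51 peaks lay on alternate contigs.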

How the results depend on the processing

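The 17 ABC genes with a peak were the same genes with any overlap of 1 base or with the summit in place of the centre. With peaks at or above the median −log10 q, 4 genes with 5 peaks were left, the median fold was 6.18 and no drug efflux gene had a peak (0). This follows from the fewer peaks counted. With a −log10 q of 5 or more, 13 genes and 19 peaks were left, and without peaks within 2 bases of the narrowest width also 13 genes and 19 peaks. ABCA5 and ABCB9 were lost under both. Counting only peaks in 1 gene of any class left 15 genes, without ABCC11 and ABCF2. Counting only peaks on the strand of the gene left 14 genes and 0 drug efflux genes, because ABCC3 has no stated strand. Shares over all coding genes are given here for the median −log10 q (25.9%) and for the strand of the gene (41.5% of genes with a stated strand). The counts under the other filters are set against no such share. Subfamilies E and G stood at 0 genes under each of the 4 settings tried for subfamilies. Only the overlap setting could have raised these counts, because the others only remove peaks. Of the 8 deepest genes, 7 were among the top 8 by −log10 q and 4 by fold. No paired analysis was possible because single libraries had no values here. With deepest summits of 6 to 54 reads, depth limits the order of neighbouring genes, while the intervals of ABCA2 and ABCA3 lay wholly above those of ABCA12 and ABCB9.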

Other observations

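PXR binds DNA at repeats of short half-sites, and the letters of 2 of these, AGGTCA and AGTTCA, were searched on both strands in the RefSeq windows of 250 bases before to 50 after annotated starts. This search was chosen after seeing the peaks, and a window was counted once however many matches it held. A half-site lay in 11 of the 53 windows of the 35 members with a window (20.8%), against 22.6% of all 35116 windows. By gene, it lay in 1 of 15 members with a peak and in 10 of 20 without one. The same split over all coding genes was not made, and members differ in their number of windows. No link between half-sites and peaks is read from it. The members with a match include ABCB1 and ABCG2, which had no peak, and ABCD4, which had one. A match is a description of letters and not of a bound site.
ABCB1, chr7:87713338-87713367, minus strand, half-site in capitals: cctgcctgccttAGTTCAtgtagctcctcc
ABCG2, chr4:88158772-88158801, minus strand, half-site in capitals, read on the opposite strand: cggctcccatcgTGACCTccagccgcagcg
ABCD4, chr14:74302940-74302969, minus strand, half-site in capitals, read on the opposite strand: tctacccagtacTGAACTaggggcagctgg
The 1 member with both a peak and a match, ABCD4, had its peak centred 1019 bases from its downstream end, far from this window.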
